A study of Mus musculus with 8 samples.

Results

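The SLC25 family of mitochondrial carriers was described in inguinal white adipose tissue (ING WAT) of C57BL/6j mice at postnatal day 21 (PN21) and postnatal day 98 (PN98). Its members were taken as all genes whose symbol is Slc25a followed by a number, which gave 47 genes of 38362 genes in the whole table. Poly(A)+ RNA was sequenced from 4 mice of each age, and the labels give no genotype or treatment. Values are given in the order m1, m49, m138, m145 for the PN21 mice and m35, m106, m114, m125 for the PN98 mice. PN21 is weaning age, and the study kept mice from then to PN98 on semisynthetic diets. The diet of the sequenced PN98 mice is not named in the sources used here. Y-linked Ddx3y lay between 18.1 and 25.9 FPKM in all 8 mice. Xist lay between 0.247 and 0.832 FPKM at PN21 and at or below 0.00704 FPKM at PN98.

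All levels are FPKM values, fragments scaled to the length of the transcript and to the mapped fragments of the library, summed over the transcripts that belong to a gene. Levels of different genes can therefore be set side by side per length. The table holds no read counts, which leaves the sequencing depth unknown, and the error given is the spread between the 4 mice of an age. Whole depots were sequenced, so fewer cells of a type and less RNA per cell cannot be told apart.

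SLC25 proteins sit in the inner mitochondrial membrane, apart from a few that sit in the outer membrane or in peroxisomes. Each carries a small set of metabolites, usually by exchange of one molecule for another. The family imports ADP and phosphate for ATP synthesis, exports citrate for fatty acid synthesis in the cytosol, brings acylcarnitines in for fatty acid oxidation, and supplies the matrix with amino acids, cofactors, iron and glutathione. The uncoupling proteins Ucp1, Ucp2 and Ucp3 share the fold of the family but not its symbol, and Ucp1 carries the proton leak of brown and beige adipocytes.

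The libraries differed in more than age. Markers of skeletal muscle (11 genes in the table) together reached 38.1 to 872 FPKM at PN21, highest in m138, and 607 to 4218 FPKM at PN98. Lymphocyte markers (11 genes) summed to 476 to 1142 FPKM at PN21 and to 22.8 to 1036 FPKM at PN98, where m35 held the highest value. Brown adipocyte markers (9 genes) summed to 3040 to 6460 FPKM at PN21 and to 373 to 4229 FPKM at PN98, lowest in m35, and Zic1 did not exceed 0.158 FPKM. Of the 8 tested none passed, and the log2 fold change was negative in 6 and positive in 2 (Elovl3 1.81 and Prdm16 0.03). White adipocyte markers (10 genes) summed to 15479 to 31294 FPKM at PN21 and to 36941 to 57450 FPKM at PN98, with Adipoq and Lipe past the test. Erythroid markers (8 genes) summed to 8425 to 18116 FPKM at PN21 and to 3679 to 5745 FPKM at PN98. Epithelial markers (6 genes) summed to 2.33 to 27.95 FPKM at PN21 and to 0.211 to 1.36 FPKM at PN98. Macrophage markers (6 genes) summed to 395 to 659 FPKM at PN21, highest in m138, and to 176 to 801 FPKM at PN98, highest in m35. No marker was listed at 0 in all 8 mice. Mouse m35 thus had higher lymphocyte and macrophage marker sums and a lower brown adipocyte marker sum than the other PN98 mice. The values without m35 are given below for some carriers only. Others moved as well, with log2 fold changes from 0.02 to 0.32 in Slc25a20 and from −0.32 to −0.08 in Slc25a35. Slc25a37 moved from −0.38 to −0.60 and Slc25a42 from −0.96 to −0.74. Without m35 the mean was lower at PN98 in 22 of the 38 tested carriers, against 27 with it, and 5 carriers changed sign. The share of all genes lower without m35 is not given here, so this move does not set the carriers apart.

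Carrier levels spanned more than 3 orders of magnitude. A mean of 100 FPKM or more over the 8 mice was found for 8 members, 15 lay from 10 to 100, 15 from 1 to 10 and 9 below 1. The 10 highest members held 81.6% to 86.2% of all FPKM of the family at PN21 and 78.4% to 88.2% at PN98. In falling order of the mean they included Slc25a1, Slc25a3, Slc25a5, Slc25a4, Slc25a39, Slc25a22, Slc25a10, Slc25a20 and Slc25a11. The citrate carrier Slc25a1 was the highest member in 6 mice and the phosphate carrier Slc25a3 in the other 2, PN21 mouse m145 and PN98 mouse m35. In how many mice Slc25a1 was the highest member depends on whether its transcripts are summed. Its main transcript, ENSMUST00000003622, held 36.6% of its FPKM, and ENSMUST00000129270 and ENSMUST00000142022, which retain an intron, held 22.0% and 19.5%. This main transcript was at 219, 304, 175 and 143 FPKM at PN21 and at 90.7, 322, 259 and 646 FPKM at PN98. The main transcript of Slc25a5 was at 252, 385, 221 and 285 and at 151, 173, 154 and 198 FPKM. It was below that of Slc25a1 only in m106, m114 and m125. The family as a whole summed to 2511 ± 457 FPKM (SD, n = 4) at PN21 and 2592 ± 927 FPKM at PN98. Without Slc25a1 the sums were 1964 ± 237 and 1662 ± 292 FPKM, and their ranges overlapped (1722 to 2249 and 1282 to 1961).

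**Figure D1:**
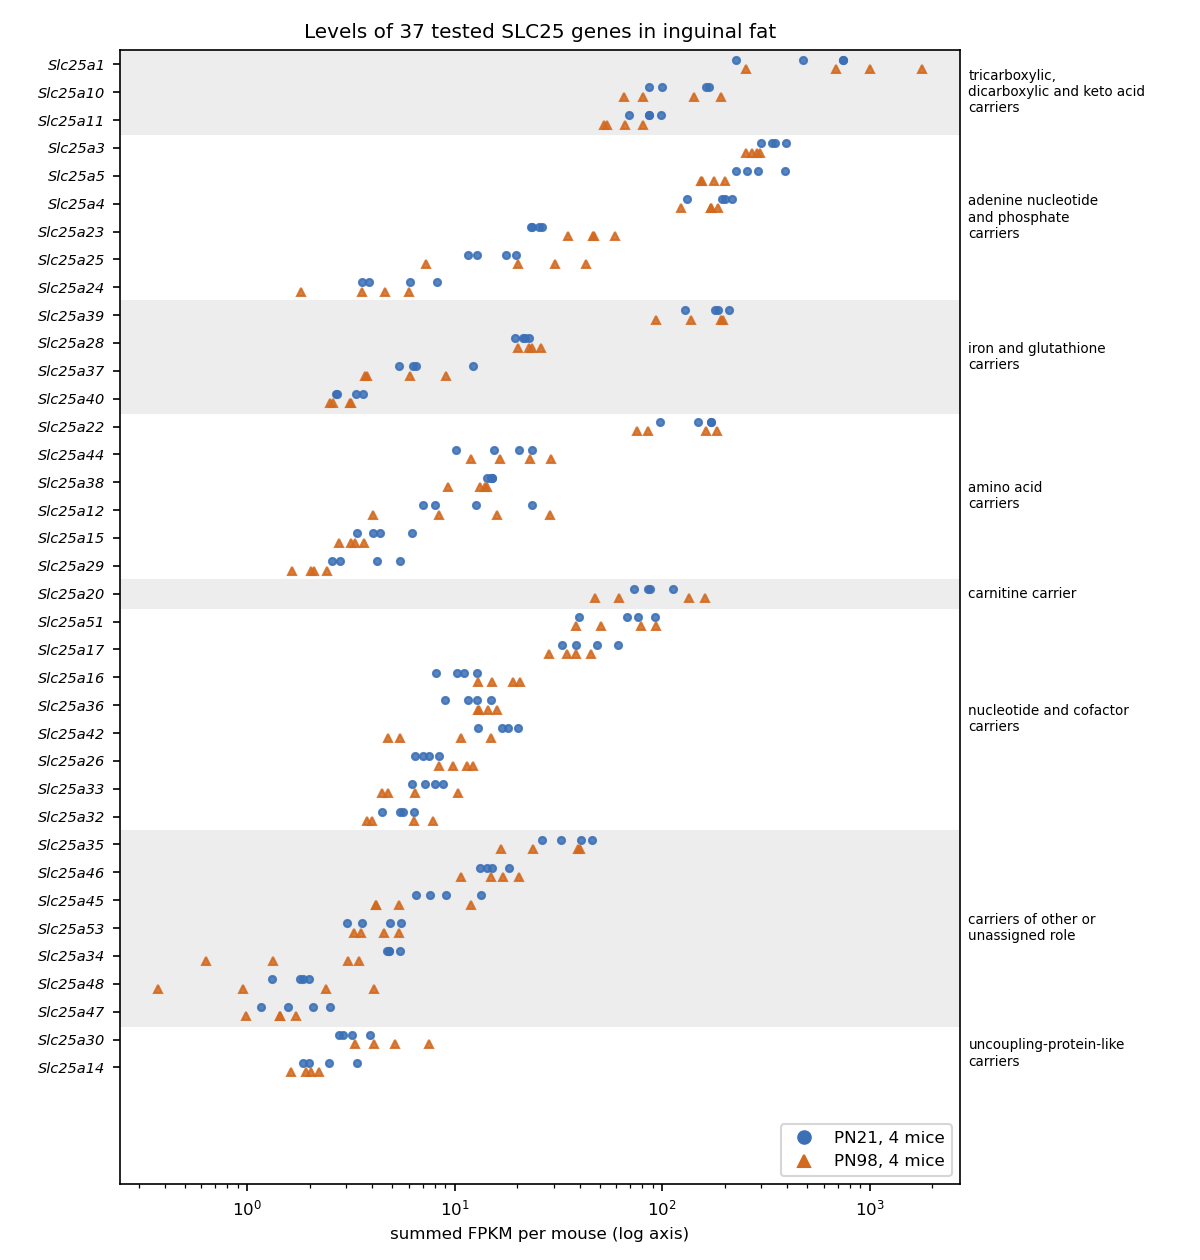
Summed FPKM on a log axis of 37 of the 38 SLC25 genes with a mean of at least 1, grouped by substrate class, with 1 point per mouse (circles PN21, triangles PN98, n = 4 each). Slc25a1 lies furthest to the right and spreads from 252 to 1783 FPKM at PN98, whereas the points of Slc25a23 at the 2 ages stand apart.

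The ages were compared for the 38 members with a mean of at least 1 FPKM, with limma on log2(FPKM + 1) over all 16092 genes that passed the same filter. Differences are PN98 minus PN21, so a positive value means higher at PN98, and on this scale the change of genes of low level is understated. One carrier, Slc25a23, passed an adjusted p of 0.05, and it was higher at PN98. Over all genes tested, 5.33% passed in either direction, 2.37% higher and 2.96% lower at PN98. Without adjustment, limma gave p under 0.05 for 3 members with the higher mean at PN98 and 5 with the lower, against 8.19% and 19.1% of all genes (27.3% in all). All 4 PN98 mice lay above all 4 PN21 mice in 3 members and below them in 4, against 6.06% and 10.02% of all genes. In either direction this was 16.1% of all genes. The median log2 fold change was −0.19 over the 38 members and −0.21 over all genes.

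The common direction depended on how the libraries were scaled. As deposited, the mean was lower at PN98 in 27 of the 38 members and in 67.00% of all genes. With median of ratios scaling it was lower in 19 members and in 52.37% of all genes, and with scaling to the summed FPKM of nuclear genes in 17 members and in 49.03%. The median of the family was then 0.02 and 0.07, beside −0.03 and 0.01 over all genes. A direction held under all 3 scalings in 28 members, 11 of them higher and 17 lower at PN98, and 8 members were lower as deposited and higher under both other scalings.

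**Figure D2:**
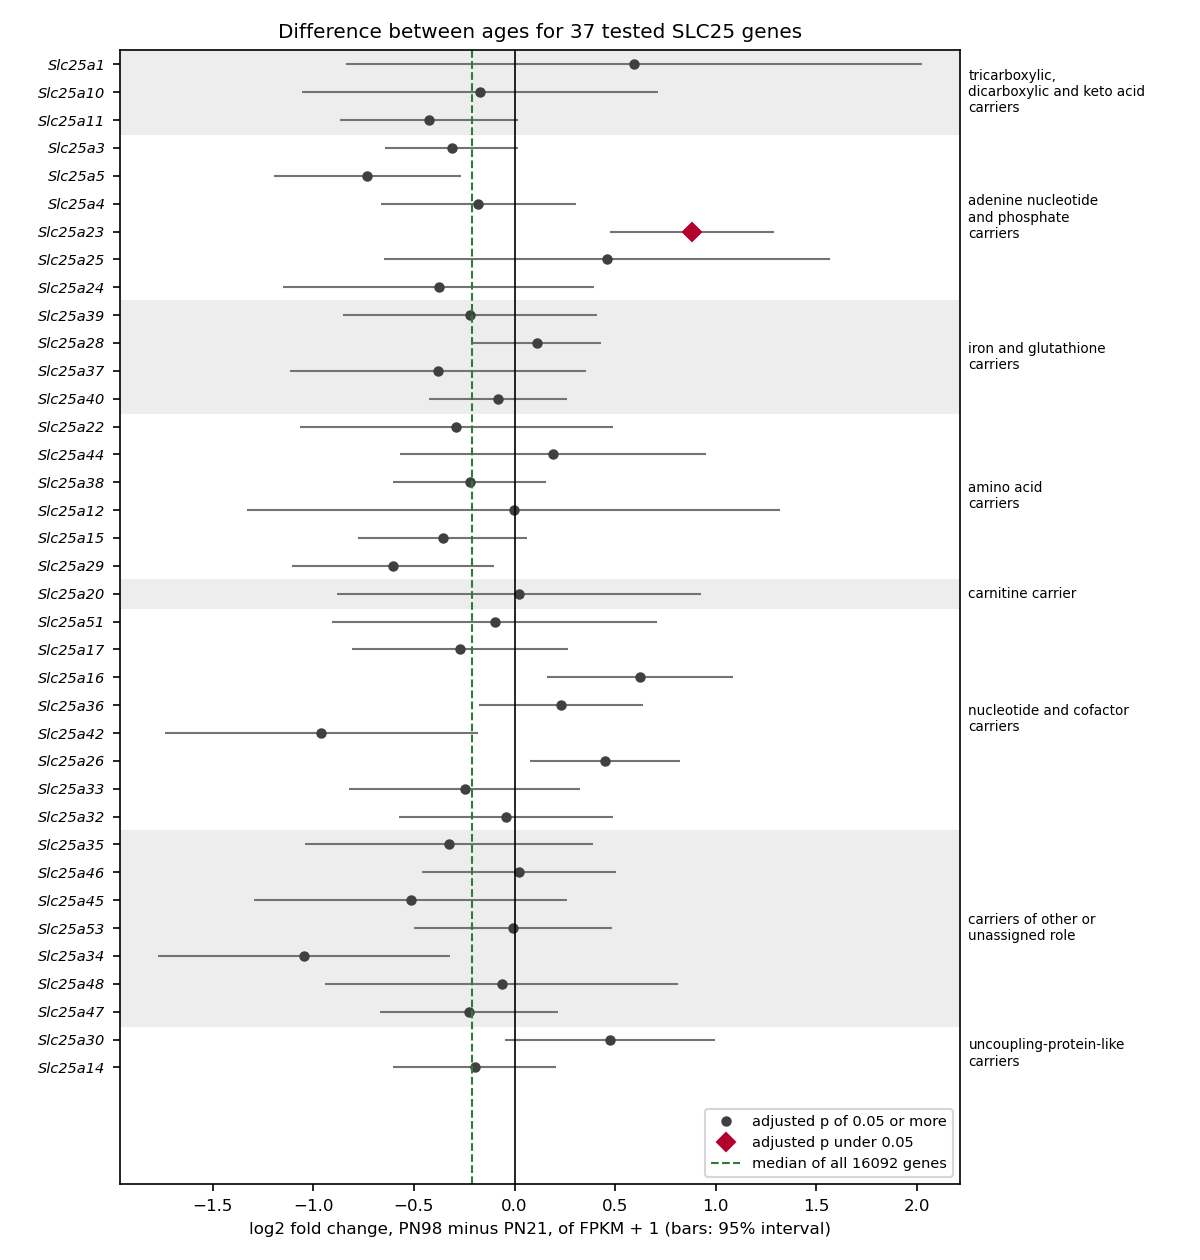
Log2 fold change of FPKM + 1 (PN98 minus PN21, n = 4 mice per age) with its 95% interval from limma for 37 of the 38 tested members, grouped by substrate class. Slc25a23 (red diamond) is the single member past an adjusted p of 0.05, and the points scatter around the dashed line at −0.21, the median of all 16092 genes.

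Among the adenine nucleotide and phosphate carriers, Slc25a23 was higher and Slc25a5 lower at PN98 in every mouse. Slc25a23 encodes a calcium-regulated carrier that exchanges ATP-Mg for phosphate across the inner membrane. It stood at 26.4, 25.4, 23.5 and 23.3 FPKM in the PN21 mice, and at 35.2, 47.0, 46.3 and 59.2 FPKM in the PN98 mice. The PN21 mice lay close together (24.6 ± 1.5), and the lowest PN98 mouse, m35, was still above the highest PN21 mouse. The mean at PN98 was 1.90 times that at PN21, with a log2 fold change of 0.88 (standard error 0.18, 95% interval 0.47 to 1.29, limma adjusted p = 0.0311). With median of ratios scaling the value was 1.09 (limma adjusted p = 0.0384), and with scaling to nuclear genes it was 1.14 (limma adjusted p = 0.0362). Leaving out 1 mouse at a time gave log2 fold changes of 0.764 to 1.008. The call held without m35 (limma adjusted p = 0.00927) and was lost without any one of the other 7 mice, with limma adjusted p from 0.0531 to 0.1003. The summed white adipocyte markers were also higher in every PN98 mouse, although among the 10 genes every PN98 mouse was above every PN21 mouse in 5 and the ages overlapped in the other 5. All 11 tested muscle markers had the higher mean at PN98 as well, and the part of these cells in the result was not tested.

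Slc25a5 encodes adenine nucleotide translocase 2, which imports ADP in exchange for ATP. Its levels were 256, 392, 226 and 290 FPKM at PN21 and 154, 177, 156 and 201 FPKM at PN98. The ages did not overlap, but the difference of −0.73 (standard error 0.20, 95% interval −1.196 to −0.267) had a limma adjusted p of 0.0779. With median of ratios scaling it was −0.52 (limma adjusted p = 0.244). Its transcript ENSMUST00000016463 on chromosome X held 98.3% of the gene's FPKM.

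Slc25a4, adenine nucleotide translocase 1, which is the isoform of heart and skeletal muscle, did not separate the ages. It stood at 194, 200, 132 and 217 FPKM at PN21 and at 123, 186, 171 and 172 FPKM at PN98, with overlapping ranges. The log2 fold change was −0.18 as deposited (95% interval −0.66 to 0.31, limma adjusted p = 0.589) and changed sign to 0.04 and 0.09 under the other scalings. The phosphate carrier Slc25a3 was listed at 338, 395, 299 and 348 FPKM at PN21 and at 271, 287, 296 and 253 FPKM at PN98. All its PN98 mice lay below all PN21 mice, by as little as 299 against 296 FPKM, and the log2 fold change of −0.31 had a limma adjusted p of 0.199. With median of ratios scaling it was −0.10.

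The other calcium-regulated ATP-Mg/phosphate carriers varied between mice. Slc25a24 was listed at 8.25, 3.87, 6.06 and 3.57 FPKM at PN21 and at 6.04, 3.59, 4.63 and 1.82 FPKM at PN98. Slc25a25 was listed at 19.7, 12.8, 17.7 and 11.6 FPKM at PN21 and at 20.2, 30.4, 42.9 and 7.25 FPKM at PN98. Both genes overlapped between the ages, and in PN98 mouse m125 both were at their lowest. Slc25a41 and Slc25a54, of the same subfamily, were listed at 0 in all PN98 mice and did not exceed 0.114 FPKM at PN21. Slc25a31, the translocase of the germ line, did not exceed 0.107 FPKM in any mouse.

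Slc25a5 and Slc25a23 had opposite directions and were the members of this class with the lowest p, so the 250 bases before their RefSeq start (GRCm38.p6) are shown, in the direction of the gene. The Slc25a5 stretch is chrX:36795347-36795596 on the plus strand, and the Slc25a23 stretch is chr17:57059864-57060113 on the minus strand. Capitals mark matches to CCAAT or to GGGCGG, a GC box, read on both strands.
Slc25a5: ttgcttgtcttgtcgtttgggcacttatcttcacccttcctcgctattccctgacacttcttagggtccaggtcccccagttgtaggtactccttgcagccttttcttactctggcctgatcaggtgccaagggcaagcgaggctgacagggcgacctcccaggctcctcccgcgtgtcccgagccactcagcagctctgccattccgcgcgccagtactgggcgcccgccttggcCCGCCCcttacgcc
Slc25a23: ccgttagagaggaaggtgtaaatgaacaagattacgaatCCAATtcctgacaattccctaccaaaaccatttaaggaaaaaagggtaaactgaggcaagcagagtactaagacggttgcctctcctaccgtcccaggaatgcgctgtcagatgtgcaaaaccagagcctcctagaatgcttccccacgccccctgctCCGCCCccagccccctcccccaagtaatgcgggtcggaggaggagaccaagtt
The listed start of Slc25a23 is that of its main transcript, and the listed start of Slc25a5 lies 54 bases from that of its main transcript. Each stretch holds 1 GGGCGG, and Slc25a23 also holds 1 CCAAT. Neither holds CACGTG (an E-box), the TATAAA box or the nuclear receptor half-site AGGTCA. RefSeq stretches were listed for 36 of the 47 members (46 in all), and 32 of these 46 (69.6%) hold GGGCGG, against 32.7% of 32851 stretches of all genes. CCAAT was in 45.7% and 33.8%, CACGTG in 17.4% and 6.02%, TATAAA in 4.35% and 12.4% and AGGTCA in 8.7% and 14.02%, respectively. These are matches of letters, with no measurement of binding.

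**Figure D3:**
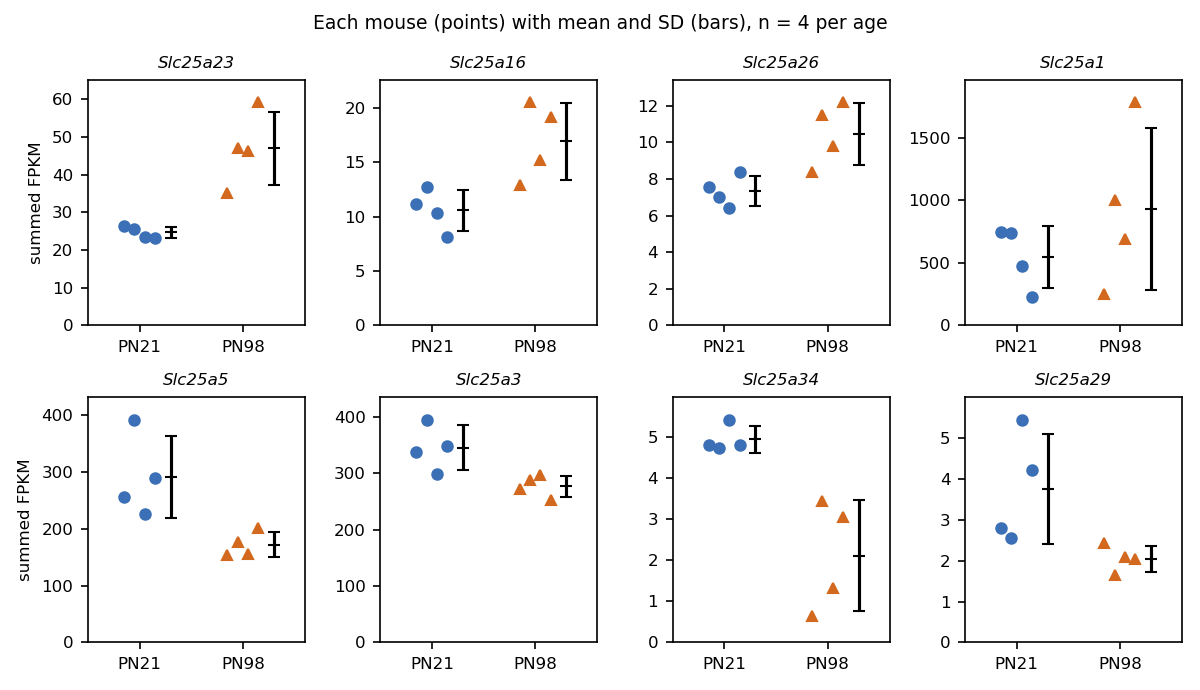
Summed FPKM of 8 carriers in each mouse (circles PN21, triangles PN98), with the mean and SD of the 4 mice of an age beside them, on linear axes from 0. In Slc25a23, Slc25a16 and Slc25a26 the PN98 mice stand above the PN21 mice, in Slc25a5, Slc25a3, Slc25a34 and Slc25a29 below them, and in Slc25a1 the ages overlap.

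Of the carriers of tricarboxylic, dicarboxylic and keto acids, Slc25a1, Slc25a10 and Slc25a11 were among the 10 highest members, and the ages overlapped in each of them. Slc25a1 exports citrate, from which ATP citrate lyase (Acly) makes cytosolic acetyl-CoA for fatty acid synthesis. It was listed at 744, 741, 476 and 226 FPKM at PN21 and at 252, 998, 687 and 1783 FPKM at PN98. The highest and lowest PN98 mice differed 7.06 times, which left a log2 fold change of 0.59 with a 95% interval from −0.84 to 2.02 (limma adjusted p = 0.545). Leaving out 1 mouse moved this value between 0.18 (without m125) and 1.11 (without m35, limma adjusted p = 0.144). Its share of the family's FPKM, with its transcripts that retain an intron included, ranged from 11% to 26.5% at PN21 and from 16.5% to 47.6% at PN98. The dicarboxylate carrier Slc25a10 was listed at 162, 168, 86.1 and 100.1 FPKM at PN21 and at 65.5, 81.0, 193 and 143 FPKM at PN98. The oxoglutarate carrier Slc25a11, part of the malate-aspartate shuttle, was listed at 98.4, 86.0, 69.1 and 86.1 FPKM at PN21 and at 54.0, 66.3, 52.2 and 81.1 FPKM at PN98. Its log2 fold change was −0.43 (95% interval −0.87 to 0.02, limma adjusted p = 0.193), and that of Slc25a10 was −0.17 as deposited and 0.04 with median of ratios scaling. Slc25a21, the oxodicarboxylate carrier, had a mean under 1 FPKM. It was at 0.481 to 1.18 FPKM at PN21 and at 0.0739 to 0.214 FPKM at PN98, with no overlap, and it passed limma (adjusted p = 0.0465) only when the filter on low values was dropped.

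None of the amino acid carriers passed the test. The glutamate carrier Slc25a22 was the most abundant of these, at 172, 149, 172 and 98.1 FPKM at PN21 and at 85.1, 163, 75.8 and 183 FPKM at PN98. The aspartate/glutamate carrier Slc25a12 ranged from 7.05 to 23.6 FPKM at PN21 and from 4.04 to 28.9 FPKM at PN98, with m138 highest at PN21 and m35 highest at PN98. The same mice had the highest lymphocyte and macrophage sums of their ages, and the part of these cells in the result was not tested. Its paralogue Slc25a13 (citrin) was at 0.745 to 1.004 FPKM at PN21 and at 0.155 to 0.707 FPKM at PN98, below the filter. Slc25a29, a carrier of basic amino acids, had all PN98 mice (2.05 ± 0.320) below all PN21 mice (3.75 ± 1.35), with a log2 fold change of −0.60 (standard error 0.22, limma adjusted p = 0.135). The glycine carrier Slc25a38 had a mean of 14.9 ± 0.424 FPKM at PN21 and 12.8 ± 2.33 at PN98. The branched-chain amino acid carrier Slc25a44 had means of 17.4 ± 5.86 and 20.1 ± 7.44, and the ornithine carrier Slc25a15 4.49 ± 1.21 and 3.23 ± 0.367. The second glutamate carrier Slc25a18 and the second ornithine carrier Slc25a2 stayed at or below 0.331 FPKM in all mice.

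The carnitine-acylcarnitine carrier Slc25a20 had PN98 mice on both sides of the PN21 range. It was listed at 85.3, 112, 87.7 and 72.7 FPKM at PN21 and at 47.7, 135, 62.0 and 161 FPKM at PN98. The log2 fold change was 0.02 with a 95% interval from −0.88 to 0.93 (limma adjusted p = 0.977), a range that leaves room for a difference in either direction.

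Among the nucleotide and cofactor carriers, 2 had every PN98 mouse above every PN21 mouse. Slc25a16, which is linked to the supply of coenzyme A, had a mean of 10.6 ± 1.91 FPKM at PN21 and 16.95 ± 3.53 FPKM at PN98. Its lowest PN98 mouse was at 12.9 and its highest PN21 mouse at 12.7 FPKM, and the log2 fold change was 0.63 (standard error 0.20, limma adjusted p = 0.106). Slc25a26, the carrier of the methyl donor S-adenosylmethionine, had means of 7.35 ± 0.830 and 10.5 ± 1.71 FPKM, with 8.396 FPKM in the lowest PN98 mouse and 8.394 in the highest PN21 mouse. Its log2 fold change was 0.45 (standard error 0.16, limma adjusted p = 0.135). In both genes m35 was the lowest of the PN98 mice. Without m35 the values were 0.74 (limma adjusted p = 0.0350) for Slc25a16 and 0.54 (limma adjusted p = 0.0467) for Slc25a26, so 3 members passed, while the share of all genes that passed grew from 5.33% to 22.1%.

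Several other cofactor carriers had a lower mean at PN98 in the deposited values. Slc25a42 carries coenzyme A and had means of 16.99 ± 3.05 FPKM at PN21 and 8.98 ± 4.80 FPKM at PN98 (log2 fold change −0.96, 95% interval −1.74 to −0.18, limma adjusted p = 0.130). Its PN98 mice were at 4.76, 10.7, 5.47 and 14.98 FPKM, and m125 fell inside the PN21 range. The NAD+ carrier Slc25a51 had means of 69.1 ± 22.1 and 65.5 ± 25.5 FPKM, and the peroxisomal carrier Slc25a17 had 45.3 ± 12.5 and 36.8 ± 7.15. Slc25a32, the folate and flavin carrier, had means of 5.49 ± 0.798 and 5.48 ± 1.95. The log2 fold change of Slc25a51 was −0.10 as deposited, 0.12 with median of ratios, 0.16 with nuclear scaling and 0.13 without m35. That of Slc25a32 was −0.04, 0.15, 0.18 and 0.07 in the same order. The pyrimidine nucleotide carriers were Slc25a33, at 7.21, 8.08, 6.23 and 8.80 FPKM at PN21 and 4.75, 6.44, 4.49 and 10.3 at PN98, and Slc25a36, at 11.5, 14.9, 12.8 and 8.94 and at 13.2, 16.0, 14.5 and 12.98. Both overlapped between the ages, and Slc25a36 had the higher mean at PN98 (log2 fold change 0.23).

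None of the iron and glutathione carriers passed the test, and each overlapped between the ages. Slc25a39, a mitochondrial glutathione carrier, was listed at 180, 186, 129 and 209 FPKM at PN21 and at 93.5, 193, 138.3 and 196 FPKM at PN98. One of its transcripts had 2 possible readings of its decimals and was left out of this sum. With the first reading the log2 fold change was −0.34 and with the second −0.19, beside −0.22 without it. Its paralogue Slc25a40 was listed at 2.67, 3.34, 3.62 and 2.71 FPKM at PN21 and at 3.16, 3.14, 2.60 and 2.50 at PN98. Mitoferrin-2, Slc25a28, imports iron in most tissues and was listed at 22.9, 21.2, 19.6 and 21.7 FPKM at PN21 and at 22.8, 20.3, 23.7 and 26.1 at PN98 (95% interval of the log2 fold change −0.21 to 0.43). Mitoferrin-1, Slc25a37, is the isoform of red cell precursors and was listed at 6.49, 6.30, 12.2 and 5.40 FPKM at PN21 and at 9.03, 6.12, 3.796 and 3.697 at PN98.

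Among the carriers of other or unassigned role, Slc25a34 was the only one of those tested in which the ages did not overlap. It was listed at 4.82, 4.74, 5.44 and 4.81 FPKM at PN21 and at 0.634, 3.45, 1.33 and 3.06 FPKM at PN98. No PN98 mouse reached the PN21 mice, and m35 and m114 were the lowest of the PN98 mice. The log2 fold change was −1.04 (standard error 0.32, limma adjusted p = 0.0936), the largest in size among the tested members as deposited. Its size depended on the setting. It was −1.44 with a pseudocount of 0.1, −0.50 with a pseudocount of 5, −0.67 with limma's arrayWeights, −0.86 under median of ratios and −0.83 under nuclear scaling. Without m35 it was −0.77 (limma adjusted p = 0.0570), and in these settings other than the pseudocount of 0.1 the difference of Slc25a23 was larger in size. Its paralogue Slc25a35 was listed at 45.8, 40.6, 32.3 and 26.4 FPKM at PN21 and at 16.7, 24.0, 40.0 and 39.1 at PN98. Slc25a46, an outer membrane protein of mitochondrial dynamics, had means of 15.3 ± 2.1 and 15.8 ± 4.05 FPKM. Slc25a45 had means of 9.14 ± 3.005 and 6.43 ± 3.71, and Slc25a53 4.24 ± 1.15 and 4.18 ± 0.978. Slc25a47 was listed at 2.50, 2.07, 1.17 and 1.58 FPKM at PN21 and at 1.72, 1.44, 0.983 and 1.44 at PN98. Slc25a48 was listed at 1.798, 1.976, 1.87 and 1.31 FPKM at PN21 and at 0.372, 2.41, 0.951 and 4.06 at PN98, a spread of 10.9 times within PN98. Slc25a43 stayed at or below 0.400 FPKM.

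The uncoupling-protein-like carriers were of low level. Slc25a30 had means of 3.19 ± 0.506 FPKM at PN21 and 4.998 ± 1.84 FPKM at PN98 (log2 fold change 0.48, limma adjusted p = 0.212). Slc25a14 had means of 2.43 ± 0.692 and 1.95 ± 0.251, and Slc25a27 had 0.957 ± 0.233 and 0.967 ± 0.303, below the filter. The uncoupling proteins themselves stood apart in level. Ucp1 was listed at 544, 650, 586 and 559 FPKM at PN21 and at 7.41, 278, 56.3 and 356 FPKM at PN98 (log2 fold change −2.81, standard error 1.07, limma adjusted p = 0.148). No PN98 mouse reached the PN21 mice, and without m35 the value was −1.71 (standard error 0.59, limma adjusted p = 0.0726). Ucp2 was listed at 293, 241, 470 and 280 FPKM and at 441, 183, 209 and 115 FPKM, and Ucp3 at 41.1, 39.1, 34.2 and 20.3 and at 17.1, 51.8, 18.3 and 53.1. The highest Ucp2 value of each age was in m138 and m35, the mice with the highest lymphocyte and macrophage sums of their ages. The part of these cells in the Ucp2 values was not tested.

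Paralogue ratios ask whether the balance within a pair of related carriers differed between the ages, and they do not depend on the scaling of a library apart from the pseudocount of 1. Of 12 pairs listed, the 8 in which both genes had a mean of at least 1 FPKM were compared by an exact two-sided permutation test, in which the 70 possible splits of the mice allow no p below 0.0286. The log2 ratio of Slc25a4 over Slc25a5 was −0.40, −0.97, −0.77 and −0.42 at PN21 and −0.32, 0.07, 0.13 and −0.22 at PN98. Every PN98 mouse had the higher ratio, by 0.55 in the mean (exact permutation p = 0.0286, Benjamini-Hochberg p = 0.114 over 8 pairs). Slc25a4 accordingly held 43.1%, 33.8%, 37.0% and 42.8% of the FPKM of the translocases Slc25a4, Slc25a5 and Slc25a31 at PN21, and 44.5%, 51.2%, 52.3% and 46.1% at PN98. The muscle sum of every PN98 mouse but m125 (607 FPKM) exceeded that of every PN21 mouse, of which m138 was highest (872 FPKM), and its part in this ratio was not tested.

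Slc25a25 over Slc25a24 was the other pair without overlap. Its log2 ratio was 1.16, 1.501, 1.41 and 1.46 at PN21 and 1.59, 2.77, 2.96 and 1.55 at PN98, a difference of 0.84 (exact permutation p = 0.0286, Benjamini-Hochberg p = 0.114). Slc25a23 over Slc25a24 differed more in the mean, by 1.26, but m35 (2.36) overlapped with m49 (2.44) and m145 (2.41), and the exact permutation p was 0.0857 (Benjamini-Hochberg p = 0.229). Slc25a34 over Slc25a35 differed by −0.72 (exact permutation p = 0.114), Slc25a28 over Slc25a37 by 0.49 (p = 0.286) and Slc25a33 over Slc25a36 by −0.48 (p = 0.2, both by the exact permutation test). Slc25a39 over Slc25a40 and Slc25a47 over Slc25a48 differed by −0.14 and −0.16. No pair passed a Benjamini-Hochberg p of 0.05. An exact permutation p under 0.05 was found for 2 pairs.

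**Figure D4:**
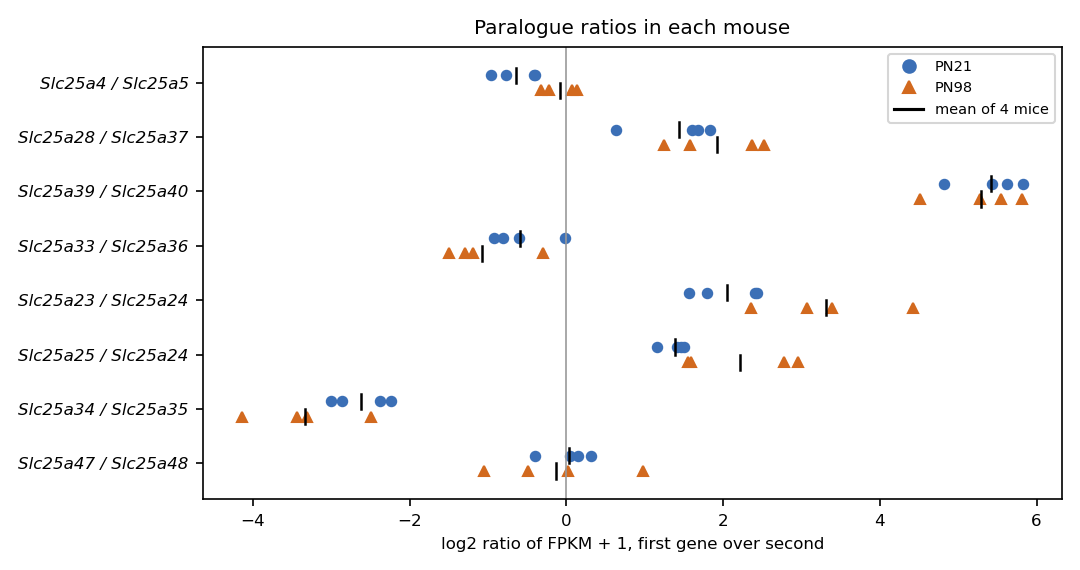
Log2 ratio of FPKM + 1 within 8 pairs of related carriers, first gene over second, with 1 point per mouse (circles PN21, triangles PN98) and a bar at the mean of 4 mice. The points of the 2 ages do not overlap for Slc25a4 over Slc25a5 and for Slc25a25 over Slc25a24, and overlap in the other 6 pairs.

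Single transcripts were compared on log2(FPKM) without a pseudocount, for transcripts above 0 in all 8 mice and above a mean of 2 FPKM at either age. Of 23137 such transcripts 80 belonged to 35 SLC25 genes. None of these 80 passed an adjusted p of 0.05 in limma, against 1.36% of all transcripts. Without adjustment limma gave p under 0.05 for 11 that were lower and 3 that were higher, against 14.8% and 6.95% of all transcripts. The lowest adjusted p, 0.0696 in limma, belonged to ENSMUST00000110127 of Slc25a42 (chr8:70184340-70212305). This transcript was listed at 6.38, 11.1, 7.85 and 8.63 FPKM at PN21 and at 1.55, 3.84, 0.952 and 2.46 FPKM at PN98. All PN98 mice lay below all PN21 mice, with a log2 fold change of −2.11 (standard error 0.44), whereas the sum of the gene's transcripts overlapped in m125. The main transcript of Slc25a23, ENSMUST00000040280, held 71.6% of the gene's FPKM and had a log2 fold change of 1.05 (limma adjusted p = 0.0718), and the second, ENSMUST00000171528, held 22.7% and had 0.68 (limma adjusted p = 0.199).

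A short transcript of Slc25a10 without a coding region, ENSMUST00000152187 (chr11:120497725-120498277), was singled out after its values were seen. It was listed at 1.70, 3.31, 3.95 and 1.201 FPKM at PN21 and at or below 0.287 FPKM at PN98, down to 2.67e-05. The fitted log2 fold change of −12.3 (standard error 2.86, limma adjusted p = 0.0880) rests on those values near 0, and the transcript held 1.05% of the gene's FPKM. In no member was the transcript with the lowest p opposite in direction to the sum of the gene.

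Within PN98 some carriers ordered the mice alike. Mouse m125 was the highest of the 4 PN98 mice in 16 of the 38 members, against 14.03% of all genes, and m35 was the lowest in 19, against 19.25% of all genes. The other way round, m35 was the highest in 10 of the 38 members and m125 the lowest in 9, against 51.47% and 50.58% of all genes. Mouse m35 was the lowest and m125 the highest in 11 members, against 8.68% of all genes. These 11 included Slc25a48, Slc25a1, Slc25a20, Slc25a42, Slc25a51, Slc25a44, Slc25a39, Slc25a23, Slc25a26 and Slc25a5, in which m125 exceeded m35 by between 10.9 and 1.31 times. At PN21, m145 was the lowest of its age in 21 of the 38 members, against 30.82% of all genes. Mouse m35 had the lowest brown adipocyte sum of all mice (373 FPKM) and m125 the highest of PN98 (4229 FPKM), and the part of that difference was not tested.

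Genes that work with the carriers showed this order of mice in some lists and not in others. In m35 all 9 genes of citrate export and fatty acid synthesis were the lowest of PN98, and in m125 all but Aco1 were the highest. Fatty acid synthase (Fasn), whose log2 fold change of 0.00 became 0.85 without m35, was at 501 FPKM in m35 and 8988 FPKM in m125, and between 1448 and 4611 FPKM at PN21. Acly was at 45.7 FPKM in m35 and 839 FPKM in m125. Of the 8 genes of the carnitine system, 6 had m35 lowest and m125 highest, among them Hadhb of fatty acid oxidation at 56.1 and 336 FPKM. The order was found in 3 of 5 uncoupling and related proteins, 3 of 6 shuttle genes, 7 of 18 other mitochondrial transporters, 2 of 8 haem and iron-sulphur genes and 0 of 6 genes of the urea cycle and ornithine list.

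**Figure D5:**
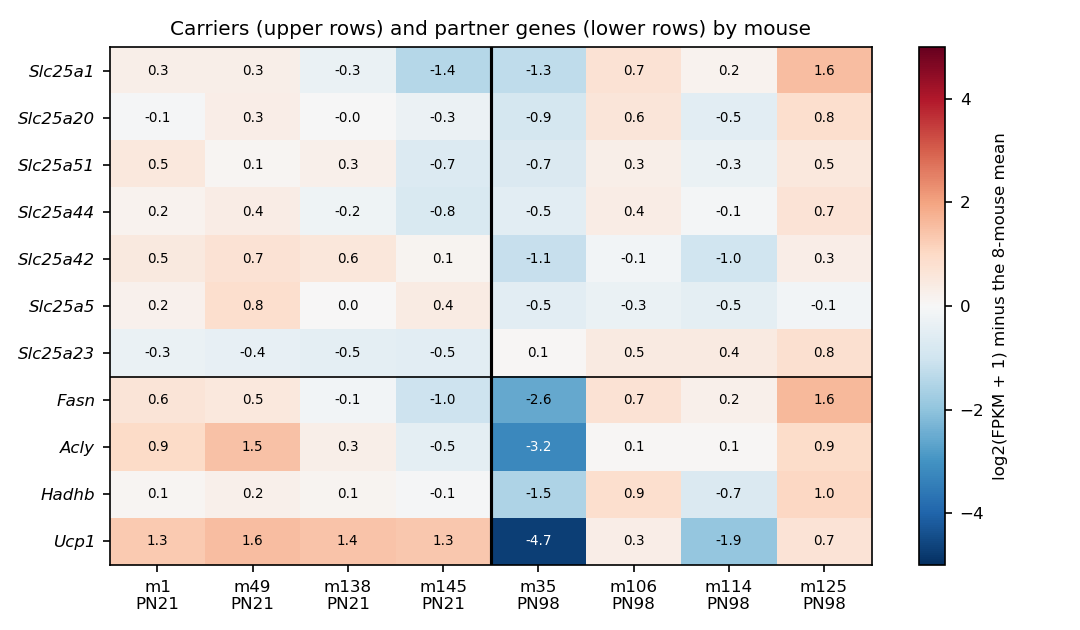
Log2(FPKM + 1) minus the mean of the 8 mice for 7 carriers (upper rows) and 4 partner genes (lower rows), with blue for low and red for high. All the genes shown are from those in which m35 was the lowest and m125 the highest of the PN98 mice. Mouse m35 is low in Slc25a1 (−1.3), Fasn (−2.6), Acly (−3.2) and Ucp1 (−4.7), m125 is high in Slc25a1 and Fasn (both 1.6), and Slc25a23 is positive in all PN98 mice.

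Of 65 partner genes listed, 58 were tested, of which limma called 3 lower and 0 higher at PN98 with an adjusted p under 0.05, against 2.96% and 2.37% of all genes. Got2, the mitochondrial aspartate aminotransferase of the malate-aspartate shuttle, was listed at 21.1, 23.2, 21.5 and 19.7 FPKM at PN21 and at 14.9, 12.1, 9.49 and 9.91 FPKM at PN98. Its log2 fold change was −0.85 (standard error 0.17, limma adjusted p = 0.0318), and the call was lost with scaling to nuclear genes (limma adjusted p = 0.0969). All 6 genes of the shuttle list had a lower mean at PN98, with a median of −0.81 in the deposited values, −0.60 under median of ratios and −0.55 under nuclear scaling, and 1 of these 6 passed. Alas2, the first enzyme of haem synthesis in red cell precursors, had a log2 fold change of −1.66 (limma adjusted p = 0.0218), and the transferrin receptor Tfrc had −1.94 (limma adjusted p = 0.0241). Alas2 is also in the erythroid list, of which 6 of the 7 tested genes were lower at PN98 with an adjusted p under 0.05, and its values do not set adipocytes apart from red cell precursors.

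No gene of the other 5 lists passed the test, and their medians moved with the scaling, as did that of all genes (−0.21 in the deposited values, −0.03 under median of ratios and 0.01 under nuclear scaling). In this order of settings the median was −0.56, −0.35 and −0.30 over the 5 uncoupling and related proteins. Over 18 other mitochondrial transporters it was −0.25, −0.04 and 0.0062, over 9 genes of citrate export and fatty acid synthesis 0.0013, 0.22 and 0.27, and over 8 genes of the carnitine system −0.26, −0.04 and 0.01. Over 6 genes of the urea cycle and ornithine list it was −0.29, −0.08 and −0.03. The haem and iron-sulphur list, which holds Alas2 and Tfrc, had −0.45, −0.26 and −0.22 over 8 genes. Sfxn4, a sideroflexin, was at 2.23 to 3.16 FPKM at PN21 and 4.28 to 6.73 FPKM at PN98 (log2 fold change 0.78, limma adjusted p = 0.0529) and passed with median of ratios scaling (limma adjusted p = 0.0328).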

How the data were processed

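Paired-end reads of poly(A)+ RNA were obtained from ING WAT of 8 mice. Per the submitters' processing notes, reads were handled with CASAVA 1.8.2 and FastQC, mapped to mm10 (GRCm38) with STAR 2.3.0 and quantified with Cufflinks 2.1.1. The authors deposited 1 FPKM value per transcript and mouse, with summary columns. Values with at least 3 decimals had lost their decimal mark in 40426 of 91969 transcripts. They were restored from the deposited SD and average: 40313 had a single reading, 38 were read from the authors' second table, and those with several readings (60) or none (15) were left out. All 4991 restored transcripts that are also listed intact agreed in all 8 mice within a small relative tolerance. The second table covers only transcripts with the authors' limma p under 0.05, and its fold changes and p-values were not used.

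Transcripts were assigned to genes by GENCODE vM21, and FPKM values were summed per gene: 258 listed transcripts name an SLC25 gene, 58 belong to an overlapping gene and 199 of the other 200 had values. Genes with a mean of at least 1 FPKM were compared by limma 3.58.1 (lmFit and eBayes, R 4.3.3) on log2(FPKM + 1), with Benjamini-Hochberg adjustment over all genes tested. The scripts were tested on simulated data. Values in every mouse are given for members past the test, the 10 highest, those with an absolute log2 fold change of at least 1 and both genes of tested pairs, and means ± SD for most others. Up to 4 partner genes a list are named where past the test. The members, lists, pairs and tests were chosen with earlier results of these data known. Nothing in the labels ties mice to batches, litters or days, and p-values set the difference between ages against the variation between these mice. Abcb10 of the partner list and Acta1 and Ms4a1 of the marker lists were not analysed here. One member of the family is part of the counts and sums but is not reported by name here.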

Additional observations from a re-analysis of the deposited data

Results flagged for a closer look

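In each age group of 4 mice, the highest and lowest values of the 38 tested members were compared with the rest of the group by Dixon's test, which marks a mouse whose gap to its nearest neighbour exceeds the 95% critical share of the range. Of 76 groups examined 3 were marked, beside 3.8 if 1 in 20 is marked by chance. Slc25a45 was at 11.9 FPKM in PN98 mouse m35 and between 4.19 and 5.41 FPKM in the other PN98 mice. Slc25a37 was at 12.2 FPKM in PN21 mouse m138 and between 5.40 and 6.49 FPKM in the others. Slc25a34 was at 5.44 FPKM in m138 and between 4.74 and 4.82 FPKM in the others. Mice m35 and m138 had the highest lymphocyte marker sums of their ages (1036 and 1142 FPKM) and the highest macrophage marker sums (801 and 659 FPKM). The part of these cells in these values was not tested.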

How the results depend on the processing

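No paired analysis was possible because the 2 ages are different mice that share no number in the labels. The count of carriers higher at PN98 was 1 and became 3 with limma's arrayWeights, and 0 to 3 when 1 mouse was left out. The count lower was 0 and became 1 without a filter on low values (Slc25a21), 5 with arrayWeights (where 7.17% of all genes were called higher and 21.76% lower) and 1 when each gene's highest transcript alone was used (Slc25a42). The family's median of −0.19 turned to 0.0154 under median of ratios and to 0.0668 under nuclear scaling. These scalings turned Slc25a4 to 0.0358 and 0.0872, Slc25a10 to 0.0439 and 0.0949, Slc25a40 to 0.0787 and 0.114 and Slc25a48 to 0.105 and 0.112, and the second turned Slc25a39 to 0.0463. With arrayWeights Slc25a28 became −0.00836, Slc25a39 0.00251 and Slc25a48 0.136, and a pseudocount of 5 gave Slc25a48 0.0155. Leaving out 1 mouse gave ranges of log2 fold change from −0.44 to 0.0751 for Slc25a10, −0.26 to 0.32 for Slc25a20, −0.36 to 0.000693 for Slc25a39 and −0.38 to 0.24 for Slc25a48. No SLC25 transcript passed an adjusted p of 0.05, and 2 did with a pseudocount of 1, 2 with arrayWeights and 0 to 1 when 1 mouse was left out. The 11 transcripts lower with an unadjusted p under 0.05 became 5 under median of ratios, 4 under nuclear scaling, 7 with a mean above 2 at both ages and 17 with arrayWeights. The 3 higher became 5, 6 and 6 under the first, second and last of these, and 1 to 5 when 1 mouse was left out. The shares of all transcripts under these settings are not given here, so these transcript counts do not set the carriers apart. Without 1 mouse the ratio of Slc25a39 over Slc25a40 ranged from −0.34 to 0.12 and that of Slc25a47 over Slc25a48 from −0.53 to 0.15, while the other ratios kept their sign, among them Slc25a28 over Slc25a37 (0.23 to 0.72), Slc25a33 over Slc25a36 (−0.73 to −0.29), Slc25a34 over Slc25a35 (−1.01 to −0.46), Slc25a23 over Slc25a24 (0.89 to 1.57) and Slc25a25 over Slc25a24 (0.59 to 1.06). The partner genes called higher at PN98 went from 0 to 1 and 2 under the 2 scalings, and all genes called higher from 381 to 751 and 558. The cause of these changes was not tested. With 4 mice per age and no read counts, the precision of the low carriers is unknown.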
